A study of Caenorhabditis elegans with 2 samples.

Results

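The mitochondrial ribosomal protein genes of Caenorhabditis elegans were followed in 2 libraries of RNA 3' ends, 1 from sorted nuclei and 1 from input nuclei. Members were all protein-coding genes of the WBcel235 annotation whose symbol starts with mrpl- (taken as large subunit) or mrps- (taken as small subunit). The subunit given for a gene below, also in the figures, follows this prefix alone. Whether each protein sits in the subunit of its prefix was not checked. There were 70 of them, 41 mrpl- and 29 mrps- genes, among 19973 protein-coding genes on the nuclear chromosomes. The sorted library came from nuclei collected by fluorescence-activated sorting and is labelled as intestine, and the input library came from nuclei of mixed tissues. Both came from strain JM149, from mixed-stage liquid cultures grown at 25 °C, and were strained to enrich adults. Neither the promoter nor the cell type that drives the fluorescent mark is given in these labels. The labels give total RNA for the input and nuclear RNA for the sorted library, so that difference and the sort cannot be told apart. Each group was 1 library, so no test between groups was possible, and the intervals given cover counting error only.

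Mitochondria carry their own ribosome, which translates the few messages of the mitochondrial genome, all of them for parts of the oxidative phosphorylation system. The ribosomal RNAs are made inside the organelle, while the ribosomal proteins are encoded by nuclear genes, translated in the cytosol and imported. Many of these proteins descend from bacterial ribosomal proteins, and others are found only in mitochondria. In this worm, knockdown of mrps-5 and other members is known to lengthen life and to induce mitochondrial chaperones.

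The sorted library held 4709432 reads and the input library 9243831, of which 4529869 and 8988627 were assigned to protein-coding genes. Levels are given as RPM, reads per 1000000 gene-assigned reads. An RNA gives 1 end whatever its length, so RPM was compared between genes without a length term. With 0 reads counted, a true level of up to 3 reads remains possible, equal to 0.662 RPM for sorted and 0.334 RPM for input nuclei. The ratio of sorted over input RPM carries an exact 95% interval, and calls of higher or lower required the bound nearest 1 to pass 2-fold. As a check of the label, 5 of 9 measured intestinal markers were called higher and 0 were called lower. Of all measured protein-coding genes, 13.6% were called higher and 4.14% lower. The gut GATA factor gene elt-2 stood at 34.4 RPM in sorted and 10.8 RPM in input nuclei, while the yolk gene vit-2 stood at 1791 and 2431 RPM in sorted and input nuclei. The intervals of the yolk genes vit-2 and vit-6 lay wholly below 1, with ratios of 0.737 (0.718 to 0.756) and 0.757 (0.739 to 0.775). Of markers of other tissues, 3 of 4 sperm, 3 of 5 hypodermis, 2 of 7 germ line and 1 of 4 pharynx genes were called lower by this rule. However, gld-1 (germ line), rol-6 (hypodermis), unc-54 (body wall muscle) and snb-1 (neuron) were each called higher. These were 1 of 7 germ line, 1 of 5 hypodermis, 1 of 5 body wall muscle and 1 of 3 measured neuron markers. Whether reads of the construct that carries the fluorescent mark were counted to any of these genes was not tested. No marker was at 0 reads in either library, and the part of other tissues in the values below was not tested. In such bulk libraries, fewer nuclei of a type and less RNA per nucleus cannot be told apart.

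As a group, the mitochondrial ribosomal protein genes stood at nearly the same level in both libraries. Their reads summed to 913 RPM (4136 reads) in sorted nuclei and 855 RPM (7684 reads) in input nuclei, a ratio of 1.07 (95% interval 1.03 to 1.11). The mrpl- genes summed to 500.5 RPM in sorted and 465 RPM in input nuclei, a ratio of 1.08 (1.02 to 1.13). For the mrps- genes the sums were 413 RPM in sorted and 390 RPM in input nuclei, a ratio of 1.06 (1.00 to 1.12). These sums rest on few genes, since the 10 members with the most input reads held 70.7% of the members' sorted and 72.4% of their input reads.

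Of the 70 genes, 42 had at least 20 reads over both libraries and are called measured, 27 had fewer and 1 had none. The 42 had a median log2 ratio of sorted over input of 0.012, with 21 above 0 and 21 below, against a median of 0.043 over the 10689 measured protein-coding genes. By the 2-fold rule 0 of 42 members were higher, against 13.6% of all measured genes, and 1 was lower, against 4.14% of all. With the bound set at 1.5-fold, 2 members were higher and 1 lower, against 20.0% and 10.5% of all measured genes. The interval lay wholly above 1 for 8 members and wholly below 1 for 8, against 32.3% and 27.5% of all. It held 1 for the other 26, which is 61.9% of the members, against 40.2% of all measured genes. For 16 members the interval stayed inside 2-fold both ways, which is 38.1% of the measured members, against 30.2% of all measured genes.

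**Figure D1:**
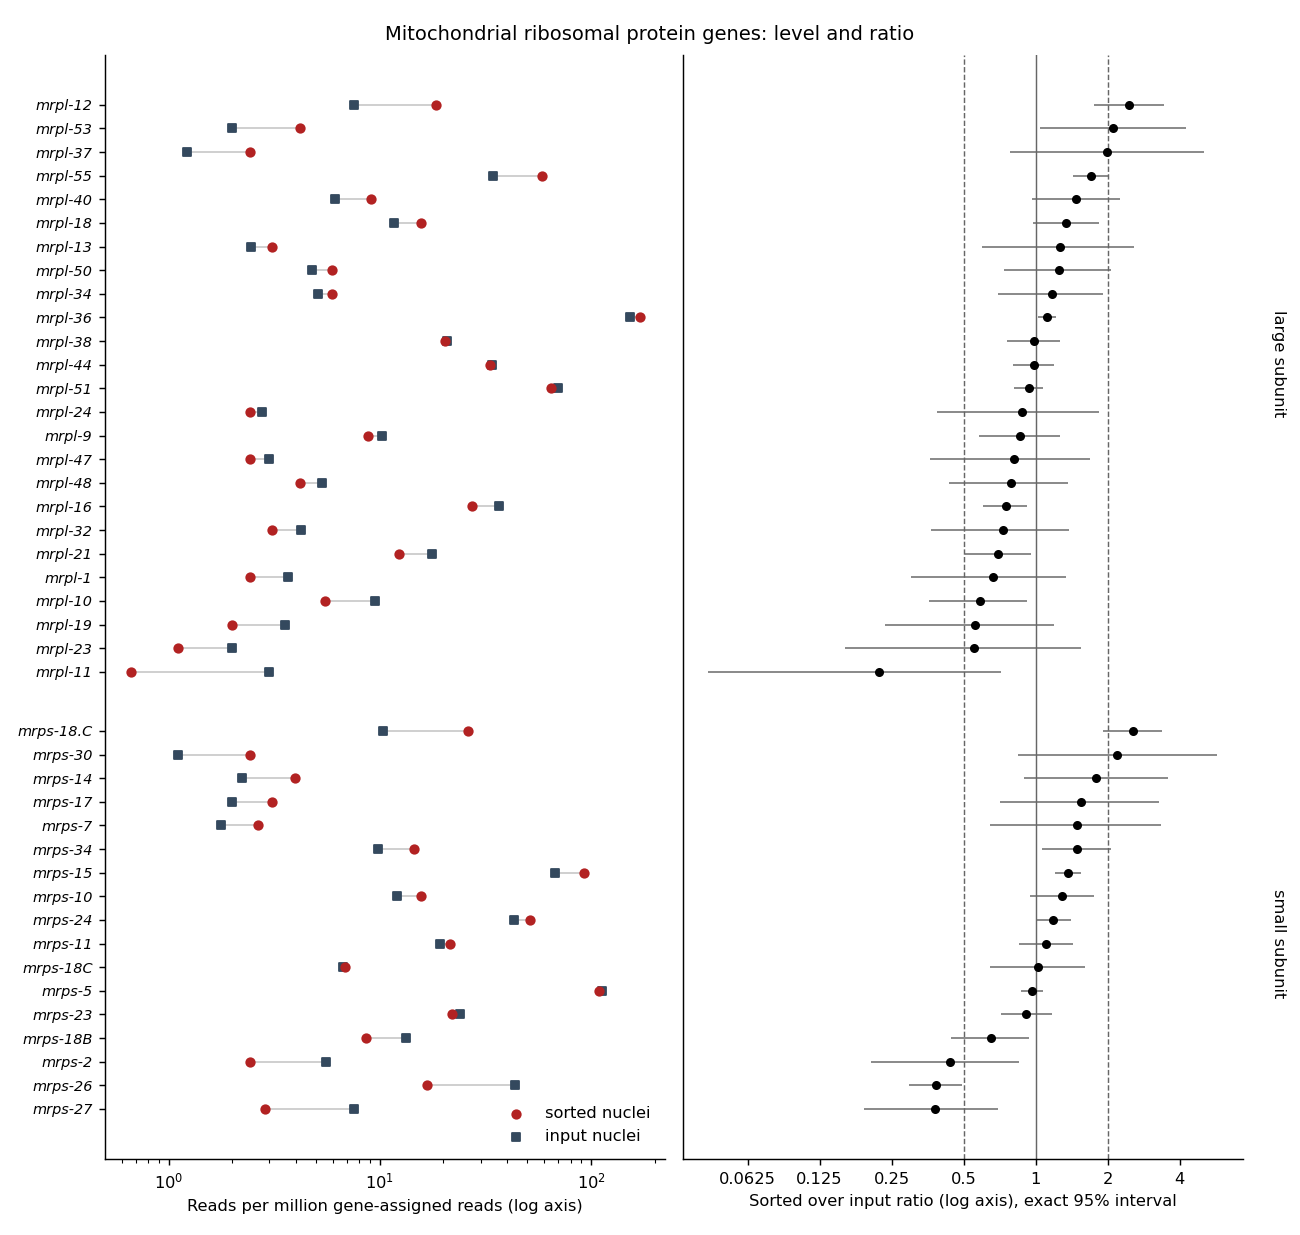
Levels (left, RPM on a log axis) and ratios of sorted over input (right, log axis, bars are exact 95% intervals) of the 42 measured members, large subunit above and small subunit below; dashed lines mark 2-fold. The level of mrpl-36 is the highest in both libraries, and only the interval of mrps-26 lies wholly past 2-fold.

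Small subunit genes are described first. The clearest difference was that of mrps-26 (WBGene00016412, III, 5234612 to 5236364, plus strand, WBcel235), which encodes a protein of the mitochondrial small subunit with no bacterial counterpart. It had 76 reads (16.8 RPM) in sorted and 392 reads (43.6 RPM) in input nuclei, a ratio of 0.385 (0.297 to 0.493). Its reads lay at the annotated end, with 98.3% of them within 24 nt of it. Without the 300 nt added past the gene's end, or with only reads near annotated ends, the interval reached 0.612 and 0.525 and the call ended, with ratios of 0.457 and 0.410. The latter setting was scaled to the reads near annotated ends, 74.6% of sorted and 77.8% of input gene-assigned reads. This scaling alone raises the ratio of a gene whose reads are unchanged. With each position counted once, the ratio of mrps-26 was 0.516 (0.165 to 1.39).

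At the other end stood mrps-18.C (WBGene00020499, II, 6736203 to 6736783, plus strand), 1 of 4 genes named for the S18 family. It had 26.3 RPM in sorted and 10.3 RPM in input nuclei, a ratio of 2.54 (1.92 to 3.37). The other S18-named genes did not share this value. The ratio was 0.650 (0.441 to 0.941) for mrps-18B, at 8.61 RPM in sorted and 13.2 RPM in input nuclei. It was 1.03 (0.642 to 1.61) for mrps-18C, a separate gene on III, with 31 and 60 reads in sorted and input nuclei, and mrps-18A had 2 sorted and 0 input reads. The S18-named genes with enough reads thus had intervals above 1, below 1 and around 1.

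The abundant small subunit genes lay closer to 1. The best known, mrps-5 (WBGene00008452, V, 12563487 to 12565801, plus strand), encodes the S5 protein and stood at 109 RPM (494 reads) in sorted and 113 RPM (1014 reads) in input nuclei. Its ratio was 0.967 (0.866 to 1.08), an interval that holds 1 and stays inside 2-fold. With each position counted once, which leaves few counts, its ratio was 1.74 (0.839 to 3.69). The S15 gene mrps-15 had 92.3 RPM in sorted and 67.6 RPM in input nuclei, a ratio of 1.36 (1.20 to 1.55), against 0.953 (0.359 to 2.41) with each position counted once. The S3 gene mrps-24 had 51.4 RPM in sorted and 43.4 RPM in input nuclei, a ratio of 1.19 (1.00 to 1.40). That interval included 1 under each of the other 3 scalings tried, and with each position counted once the ratio was 0.847 (0.304 to 2.20). The ratio of mrps-34, a mitochondrion-specific protein, was 1.49 (1.06 to 2.07), with 66 sorted and 88 input reads.

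Further small subunit genes lay below 1 on few reads. The S2 gene mrps-2 had 11 sorted and 50 input reads, a ratio of 0.437 (0.205 to 0.850). With 13 sorted and 68 input reads, mrps-27, a mitochondrion-specific protein, had a ratio of 0.379 (0.192 to 0.693). This gene overlaps the end of hinf-1 on the same strand, and 5 of its sorted and 21 of its input reads lay at most 300 nt past that end. With positions claimed by more than 1 gene left out, its ratio was 0.338 (0.138 to 0.722).

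Among large subunit genes, those of the stalk gave unlike ratios. The stalk is the flexible arm of a ribosome that recruits translation factors, and L12 forms its tip while L10 and L11 belong to its base. For mrpl-12 (WBGene00012361, III, 10707761 to 10708521, plus strand) the level was 18.5 RPM (84 reads) in sorted and 7.57 RPM (68 reads) in input nuclei, a ratio of 2.45 (1.76 to 3.43). For mrpl-10 (WBGene00010458, II, 8277578 to 8278515, minus strand) it was 5.52 RPM (25 reads) in sorted and 9.46 RPM (85 reads) in input nuclei, a ratio of 0.584 (0.358 to 0.921). For mrpl-11 (WBGene00015133, III, 8717644 to 8718567, plus strand) there were 3 sorted and 27 input reads, a ratio of 0.220 (0.0428 to 0.716). The interval of mrpl-12 lay above 1 and those of mrpl-10 and mrpl-11 below it, but for mrpl-10 and mrpl-12 this depended on how reads were counted. The ratio of mrpl-10 was 0.870 (0.496 to 1.47) with only reads near annotated ends and 0.869 (0.501 to 1.46) with only reads past the stop codon. The ratio of mrpl-12 was 0.688 (0.235 to 1.82) with each position counted once. With only reads near annotated ends it was 2.96 (2.09 to 4.22), and that of mrps-18.C was 2.65 (2.00 to 3.51), so both passed 2-fold there. All reads of mrps-18.C lay near its annotated end, so only the scaling to such reads moved its ratio.

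The most abundant member in both libraries was mrpl-36 (WBGene00010783, III, 9847626 to 9848116, minus strand), for the small L36 protein. It had 170.0 RPM (770 reads) in sorted and 153 RPM (1373 reads) in input nuclei, a ratio of 1.11 (1.02 to 1.22) that included 1 under TMM (lower bound 0.993) and median-of-ratios scaling (lower bound 0.992). Its main site lay 3 nt past the annotated end, outside the span, and without the added 300 nt the ratio was 0.462 (0.113 to 1.42). With each position counted once it was 0.688 (0.301 to 1.48). The mitochondrion-specific mrpl-51 had 64.9 RPM in sorted and 69.4 RPM in input nuclei, a ratio of 0.935 (0.811 to 1.08), and without the added 300 nt 1.13 (0.780 to 1.62). For mrpl-55, another of that kind, the level was 58.5 RPM in sorted and 34.5 RPM in input nuclei, a ratio of 1.70 (1.43 to 2.01). The L16 gene mrpl-16 had 27.4 RPM in sorted and 36.6 RPM in input nuclei, a ratio of 0.748 (0.603 to 0.922). That interval included 1 with only reads near annotated ends, at 0.910 (0.730 to 1.13), and with only reads past the stop codon, at 0.868 (0.696 to 1.08). The ratio of mrpl-53 was 2.09 (1.04 to 4.23) on 19 sorted and 18 input reads, and its interval included 1 (1.98, 0.974 to 4.04) when positions claimed by more than 1 gene were left out. The last of the 8 members below 1 was mrpl-21, named after its values were seen like mrps-18B, at 0.699 (0.506 to 0.953).

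**Figure D2:**
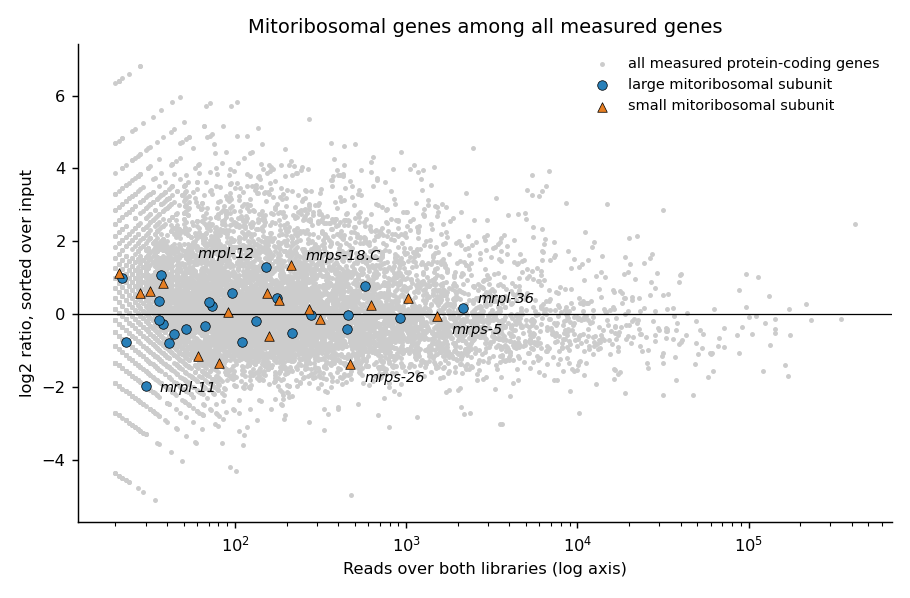
log2 ratio of sorted over input (y) against the reads of a gene over both libraries (x, log axis) for all measured protein-coding genes (grey) and for measured members of the large (circles) and small (triangles) mitoribosomal subunit. Members run from -1.99 (mrpl-11) to 1.34 (mrps-18.C), inside the grey range of -5.12 to 6.82.

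Grouped by subunit or by origin of the protein, the members' ratios overlapped. The 25 measured mrpl- genes had a median log2 ratio of -0.096, with 10 above and 15 below 0, and the 17 measured mrps- genes one of 0.25, with 11 above and 6 below. Members were also divided by whether the protein has a bacterial counterpart, after the human protein of the same number. Genes numbered up to 36 (large) or 21 (small), with mrpl-47, mrps-24 and mrps-28, counted as bacterial-type. The 28 measured bacterial-type genes had a median of -0.00052 (14 above and 14 below 0). The 14 measured mitochondrion-specific genes had a median of 0.15 (7 above and 7 below), and mrps-26 was among them. Ranges overlapped, from -1.99 to 1.34 for the bacterial-type and from -1.37 to 1.12 for the mitochondrion-specific genes.

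Under the minimum of 20 reads were 28 genes, which have no call. Of these, 14 had 10 to 19 reads. The mitochondrion-specific mrpl-46 had 13 sorted and 5 input reads, mrpl-15 had 10 and 6, and mrps-12, for the S12 protein of the decoding centre, had 10 and 5 (sorted and input). Their intervals lay above 1, and 38.9% of the reads of mrpl-46, 12.5% of those of mrpl-15 and 53.3% of those of mrps-12 lay past the stop codon. The files' coordinates were offset by 4612 nt in the stretch of V that holds mrps-12, an offset that fitted 50.8% of the positions there. The L28 gene mrpl-28 had 0 sorted and 16 input reads, that is at most 0.662 RPM in sorted and 1.78 RPM in input nuclei. Reads were divided 10 and 9 between sorted and input nuclei for mrps-31, 6 and 11 for mrps-33, 3 and 12 for mrps-6, and 5 and 10 for mrpl-39. In the same order they were 8 and 7 for mrpl-49, 8 and 6 for mrpl-4, 6 and 8 for mrpl-35, 5 and 8 for mrps-21, 7 and 5 for mrps-9, and 4 and 6 for mrpl-54. The intervals of these 10 genes all included 1.

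Of the other low genes, 13 had 1 to 9 reads. The genes mrpl-17, mrpl-30 and mrpl-41 each had 4 sorted and 5 input reads. The L22 gene mrpl-22 had 0 sorted and 7 input reads. Sorted and input reads were 4 and 3 for mrpl-2, 2 and 4 for mrpl-20, 1 and 6 for mrpl-45, 1 and 5 for mrps-35 and 1 and 4 for mrps-25. There were 2 sorted and 0 input reads for mrps-18A, 1 and 1 for mrps-28, 0 and 1 for mrpl-42, and 1 and 0 for mrps-22. The stretch of V that holds mrps-28 was offset by 4611 nt, which fitted 21.2% of the positions there. For mrps-16 there were 0 reads in both libraries. Levels of the members thus ranged from 0 reads to 170.0 RPM in the sorted library.

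Other measures that did not enter the choice of members were their place and size. No member lies on the X chromosome, which holds 13.7% of protein-coding genes, and 22 of 70 (31.4%) lie on III, which holds 13.2%. The other members were 15 on I, 12 on II, 11 on IV and 10 on V. Their median span of 1126 nt was shorter than the 2027 nt of all protein-coding genes. For 26 members (37.1%) the nearest upstream gene on the same strand ended under 500 nt before the member's start, against 17.8% of all genes, and for 19 (27.1%) under 150 nt, against 7.83% of all. In this worm such close spacing is typical of operons, in which several genes are transcribed together. Some neighbours share the process. The gene mrpl-4 starts 105 nt after the end of mrps-2, and mrps-22 starts 105 nt after dap-3, whose human counterpart is another small subunit protein. In the first pair there were 11 sorted and 50 input reads for mrps-2, and 8 sorted and 6 input reads for mrpl-4. In the second there were 2 sorted and 10 input reads for dap-3, and 1 sorted and 0 input reads for mrps-22.

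The other genes of mitochondrial gene expression were taken from a list of translation factors, aminoacyl-tRNA synthetases and dap-3. Of 22 symbols 15 matched the annotation and 10 were measured, with a median log2 ratio of -0.032. Of the 10, 0 were called higher at 2-fold and 1 was called lower, against 13.6% and 4.14% of all measured genes. The lower gene was fars-2, for a phenylalanyl-tRNA synthetase, at 181 RPM in sorted and 417 RPM in input nuclei, a ratio of 0.435 (0.403 to 0.469). It lies in a stretch of V where the files' coordinates were offset by 4611 nt, an offset that fitted 21.2% of the positions there. The elongation factor genes tufm-1, tsfm-1 and gfm-1 stood at 1.01 (0.792 to 1.29), 1.18 (1.01 to 1.38) and 0.921 (0.733 to 1.15). The second EF-Tu gene, tufm-2, had 4 sorted and 33 input reads, a ratio of 0.241 (0.0619 to 0.676). Of 5 genes that keep or transcribe the mitochondrial genome, 0 passed 2-fold either way. The polymerase gamma gene polg-1 had 15 sorted and 7 input reads, a ratio of 4.25 (1.63 to 12.3), and the mitochondrial RNA polymerase gene rpom-1 had 6 sorted and 40 input reads, a ratio of 0.298 (0.103 to 0.707). A list of mitochondrial chaperones, proteases, prohibitins and factors of the mitochondrial stress response (among them atfs-1, ubl-5 and haf-1) had 10 measured genes, of which 0 were called at 2-fold, with the chaperonin gene hsp-60 at 2.06 (1.37 to 3.11) and the mitochondrial Hsp70 gene hsp-6 at 0.697 (0.428 to 1.10).

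Set beside the 2 most similar families, the mitochondrial ribosomal protein genes were far less abundant. Their median level over measured genes was 7.73 RPM in sorted and 7.57 RPM in input nuclei. For the 81 cytosolic ribosomal protein genes it was 1215 RPM in sorted and 1438 RPM in input nuclei, and for the 53 measured nuclear genes of the respiratory chain 34.0 RPM in sorted and 44.1 RPM in input nuclei. Median log2 ratios were -0.35 for the cytosolic ribosomal and -0.29 for the respiratory chain genes, against 0.012 for the members. At 2-fold, 6 of 81 cytosolic ribosomal genes (7.41%) and 7 of 53 respiratory chain genes (13.2%) were called lower, against 4.14% of all measured genes. Called higher were 0 cytosolic ribosomal genes and 1 respiratory chain gene (1.89%), against 13.6% of all. Summed levels gave ratios of 0.840 (0.838 to 0.842) for the cytosolic ribosomal and 0.571 (0.564 to 0.577) for the respiratory chain genes, against 1.07 for the members. The difference between these families was not tested.

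**Figure D3:**
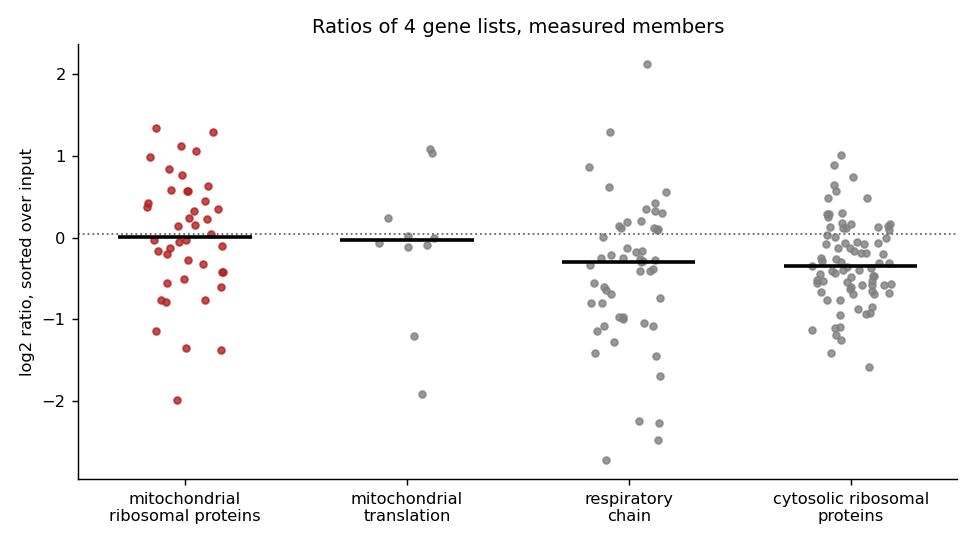
log2 ratio of sorted over input for measured genes of 4 lists (points, spread sideways at random for sight), with each list's median as a bar and the median of all measured protein-coding genes as a dotted line. The bar lies at 0.012 for the mitochondrial ribosomal proteins, -0.032 for mitochondrial translation, -0.29 for the respiratory chain and -0.35 for the cytosolic ribosomal proteins.

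The series also concerns alternative polyadenylation, so the position of 3' ends within members was compared. Ends within 24 nt of a locally highest position formed a site, and sites holding 5% or more of a gene's reads in sorted or input nuclei were retained. With at least 20 reads in each library 25 members could be compared, of which 11 had a single site and 14 had 2 or more, with 46 sites in all. The leading site was the same in sorted and input nuclei for all 25, and for 23 it lay within 24 nt of an annotated end. A shift was called where the share of any site changed by 20 percentage points or more between libraries with separate exact intervals. By this rule 0 of 25 members had a shifted site, against 8.98% of the 7072 protein-coding genes compared. Intervals of at least 1 site did not overlap, whatever the size of the difference, for 3 of 25 members (12.0%) and for 23.0% of all genes compared.

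These 3 members were mrpl-12, mrpl-16 and mrps-11, and like mrpl-10, mrpl-44 and mrpl-18 below they were picked out after their values were seen. In mrpl-12 the site 152 nt past the stop codon (position 10708425 of III in the coordinates of the files) held 97.6% (91.7 to 99.7) of sorted and 79.4% (67.9 to 88.3) of input reads. A nearer site, 77 nt past the stop codon, held 0% (up to 4.30%) of sorted and 10.3% (4.24 to 20.1) of input reads. The intervals of this nearer site overlapped, and those of the site at 152 nt did not. In mrpl-16 a site inside the coding sequence, at 4704611 of III, held 0.806% (0.0204 to 4.41) of sorted and 12.2% (8.83 to 16.2) of input reads. The end site of that gene held 99.2% (95.6 to 100) of sorted and 85.1% (80.8 to 88.8) of input reads. In mrps-11 an intronic site at 12494123 of V had 6 of 97 sorted reads, 6.19% (2.30 to 13), and 0 of 174 input reads (up to 2.10%).

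The largest difference in share among members was in mrpl-10, but the intervals overlapped. A site 7 nt before the stop codon, at 8277597 of II, held 12.0% (2.55 to 31.2) of 25 sorted and 37.6% (27.4 to 48.8) of 85 input reads, and the annotated end held 84.0% (63.9 to 95.5) and 58.8% (47.6 to 69.4) of sorted and input reads. In mrpl-44, whose human counterpart carries an RNase III-like domain, 80.1% (72.9 to 86.2) of sorted and 83.3% (78.7 to 87.3) of input reads lay at a site 232 nt past the stop codon, inside the 3' UTR and upstream of the annotated end. The annotated end of mrpl-44 had 13.9% (8.82 to 20.5) of sorted and 9.15% (6.17 to 13) of input reads. The paired ends of mrpl-18, 118 and 144 nt past the stop codon, held 71.8% and 21.1% of sorted and 82.9% and 11.4% of input reads, with overlapping intervals.

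**Figure D4:**
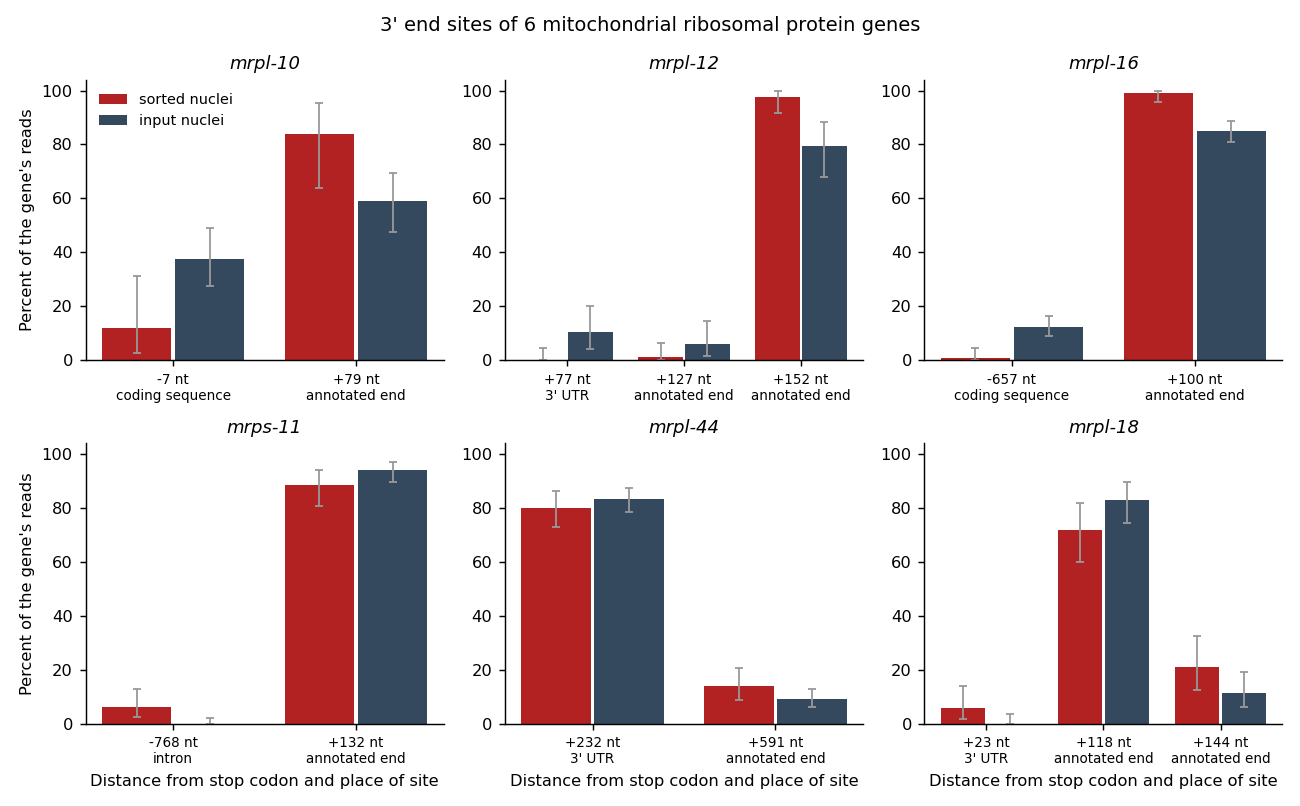
Share of a gene's reads (y, percent, bars with exact 95% intervals) at each kept 3' end site, for sorted (left bars) and input nuclei (right bars) in 6 members. Sites are labelled by distance from the stop codon, negative upstream of it, and by place. The tallest bar is the same site in both libraries for each gene, and intervals separate in mrpl-12, mrpl-16 and mrps-11.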

How the data were processed

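Values deposited by the authors are unscaled counts, whole numbers of reads at each stranded position. Per the submitters' processing notes TopHat was used (version, genome build and read filters: not given in the sources used here). Coordinates show that the files' build differs from WBcel235. In each of 203 windows of 0.5 Mb the commonest offset between positions with at least 10 reads and annotated 3' ends of protein-coding genes (Ensembl release 115) was added, for assignment to genes only. For 200 windows it lay between -7 and 120 nt, and for 3 windows of V at 4611 or 4612 nt. A median of 41.8% of positions lay within 3 nt of it. Reads were summed over a gene's span plus 300 nt on its strand. Positions in 1 span went to that gene before any extension, and 2471 positions still shared were left out. Ratios carry exact binomial (Clopper-Pearson) 95% intervals, and log2 ratios had 0.5 reads added per library. Since PCR copies carried no molecular identifiers, reads are not independent molecules and intervals cover counting error only. Python 3.11.15, scipy 1.17.1, edgeR 4.0.16 and DESeq2 1.42.0 (both R packages for scaling only) were used, and the steps were tested on simulated data. Genes named were those called, the 6 with the highest lower and the 6 with the lowest upper bounds, the 6 with most reads in each library, mrps-5 and every gene under 20 reads. Members and lists were chosen with earlier results of these data known. Genes can share reads with overlapping neighbours on the same strand. No genome sequence was used here, so possible priming inside A-rich stretches was not examined.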

Additional observations from a re-analysis of the deposited data

How the results depend on the processing

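No paired analysis was possible because each group is 1 library. Alternatives covered scaling, read minimums, the gene region, shared positions, offset windows and positions counted once. The count of members called lower at 2-fold was 1 (mrps-26) with all of these except 4 settings with 0: span only, only positions within 24 nt of annotated ends, only windows with an offset of at most 5 nt (which hold 7 measured members, mrps-26 not among them) and each position counted once. It was 0 as well with the call at 4-fold. The count called higher was 0 throughout, except 2 (mrpl-12 and mrps-18.C) with only positions near annotated ends and 2 with the call at 1.5-fold. With only positions near annotated ends, the reads of mrps-18.C were unchanged and only the scaling moved its ratio. The summed ratio was 1.01 (0.963 to 1.07) with span only, 1.13 with only positions near annotated ends, 1.50 in the 5 nt windows and 0.911 with each position counted once, which caps a position at 1 read per library. In the 5 nt windows the ratio of mrpl-55 was 1.80 (1.52 to 2.13), while the median log2 ratio of the 7 measured members was -0.074. With each position counted once the intervals of mrpl-55, mrps-34 and mrps-27 also included 1. The median log2 ratio ran from -0.15 (span only) to 0.23 (no read minimum). Members with a shifted site numbered 1 (mrpl-12) with a site radius of 10 nt and 2 (mrpl-12 and mrpl-16) with a difference of at least 10 percentage points, against 9.25% and 15.2% of all genes compared, and 0 otherwise. Counting only positions past the stop codon was chosen after seeing the data and gave 0 higher and 1 lower. Other causes of these differences were not tested.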

Other observations

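In several members most reads, taken over both libraries together, lay away from the annotated 3' end. Of the 42 measured genes, 36 had at least 50% of their reads within 24 nt of an annotated end, and the median over the 42 was 92.5%, against 84.9% over all measured protein-coding genes. In mrps-14, for the S14 protein, 0% of 38 reads lay that close, though 84.2% lay past the stop codon. In mrpl-32 only 13.5% of 52 reads lay near the annotated end and 17.3% past the stop codon. The corresponding shares were 35.7% and 88.6% of 70 reads in mrpl-50 and 9.09% and 9.09% of 22 reads in mrpl-37, for a mitochondrion-specific protein. In mrpl-19 they were 29.3% and 87.8% of 41 reads. These genes were picked out for these values.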
